A study of Mus musculus with 7 samples.

Results

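The genes described here belong to the integrated stress response that runs through the transcription factor ATF4. They were chosen by symbol, and the 10 symbols Atf4, Atf5, Ddit3, Ddit4, Trib3, Chac1, Sesn2, Nupr1, Psat1 and Phgdh match 11 of the 28666 gene IDs in the deposited table, because Ddit3 is given to 2 overlapping IDs. The second Ddit3 ID (ENSMUSG00000116429) had 1 count in all, from mature replicate 1, so it did not pass the filter on low counts, and the other 10 IDs were tested. The cells were bone marrow-derived dendritic cells (BMDCs) grown from young adult female C57BL/6 mice over a week with GM-CSF and IL-4. They shared a Transwell co-culture with the mouse colon carcinoma line MC38 and about a day of treatment with the glutamine antagonist DON. Both groups come from DON-treated cultures according to the text of the study, while a figure legend there names DMSO or DON. The study describes its DON condition as rich in glutamine, with glutamine added, and its DMSO control as lower in glutamine. The labels give only the stage, immature in 3 libraries and mature in 4, and the stages were separated by flow sorting whose markers are not given in the sources used here. How many mice or cultures the libraries represent is not given either, so the p-values measure the spread between these libraries, which may in part be technical.

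In the integrated stress response, kinases that sense amino acid shortage, misfolded protein in the endoplasmic reticulum (ER), heme deficiency or double-stranded RNA phosphorylate the translation factor eIF2alpha. General translation then slows while the Atf4 mRNA is translated more efficiently, and ATF4 protein, usually paired with a C/EBP or another bZIP factor, turns on genes for amino acid supply, for redox balance and, under lasting stress, for cell death. Because ATF4 is controlled largely at translation, the level of its mRNA is not a measure of its protein. Dendritic cells meet this response when nutrients such as glutamine or tryptophan run short and when secretion loads the ER.

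ATF4 dimers bind composite elements whose core reads TGATGNAA on one strand, with N any base. The promoters of all 10 genes, 12 sequences of 300 bases reaching from 250 bases before to 50 bases after a RefSeq start site (mouse build GRCm38.p6), were searched on both strands for this core, for the ATF/CRE-like octamer TGACGCAA and for the ER stress element. The 30 bases around each match are shown because they are the only stretches of these promoters that hold one of the motifs. Matches are in capitals, written 5′ to 3′ on the strand of the gene.
Chac1, chr2:119350992-119351021, plus strand, TGACGCAA from 250 bases upstream of the start site: TGACGCAAtctgactcgcccttgctgcatg
Chac1, chr2:119351038-119351067, plus strand, the core in reverse from 193 bases upstream: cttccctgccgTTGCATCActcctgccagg
Nupr1, chr7:126625562-126625591, minus strand, the core in reverse from 110 bases upstream: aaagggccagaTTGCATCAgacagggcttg
Trib3, chr2:152344028-152344057, minus strand, the core in reverse from base 15 after the RefSeq start site: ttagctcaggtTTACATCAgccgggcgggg
Distances are from RefSeq start sites, which differ from the gene ends in the deposited table. By that table the Trib3 match (152344039 to 152344046) lies just upstream of the gene, which ends at 152344032, and the Nupr1 match lies inside the gene. Chac1 holds both octamers, and it shares the letters TTGCATCA with Nupr1, while Trib3 differs from them inside the core. The core was present in 3 of 12 member promoters and in 1304 of all 32851 promoters (3.97%), and TGACGCAA in 1 of 12 and in 0.490% of all. The ER stress element was in none of the 12 and in 0.119% of all. The 3 genes with a core match, Chac1, Nupr1 and Trib3, are among the 5 of 10 members that were lower in mature cells by the criteria given next. Phgdh and Psat1, the others of these 5, had no match. Over the 323 tested genes with a core match, 16.4% were lower and 13.6% higher in mature cells by the same criteria. Over all tested genes these shares were 9.95% and 13.2%. A match is a run of letters and not a measured binding site, and ATF4 elements outside these windows were not searched.

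The stages were compared with the quasi-likelihood test of edgeR, fitted to the counts of all 17461 genes that passed its filter, with Benjamini-Hochberg adjustment over all of them. The criteria of the study were used, a log2 fold change (log2FC, mature over immature) of 1 or more in size together with an adjusted p below 0.05. Trib3, Phgdh, Chac1, Psat1 and Nupr1 passed, which is 5 of 10 members where 23.1% of all tested genes passed. All 5 were lower in mature cells, where 9.95% of all tested genes were lower and 13.2% higher by the same criteria. By the adjusted p alone 9 members passed (46.1% of all tested genes), 7 of them lower (22.9% of all) and 2 higher, Sesn2 and Ddit4 (23.2% of all). Ddit3 did not pass in either way. The median log2FC was -1.04 over the 10 members and 0.055 over all tested genes. In CPM, which is the count over the TMM-adjusted library total, no mature library lay inside the immature range for 9 members, 7 lower and 2 higher in mature cells, as for 52.1% of all tested genes, 26.7% lower and 25.4% higher.

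**Figure D1:**
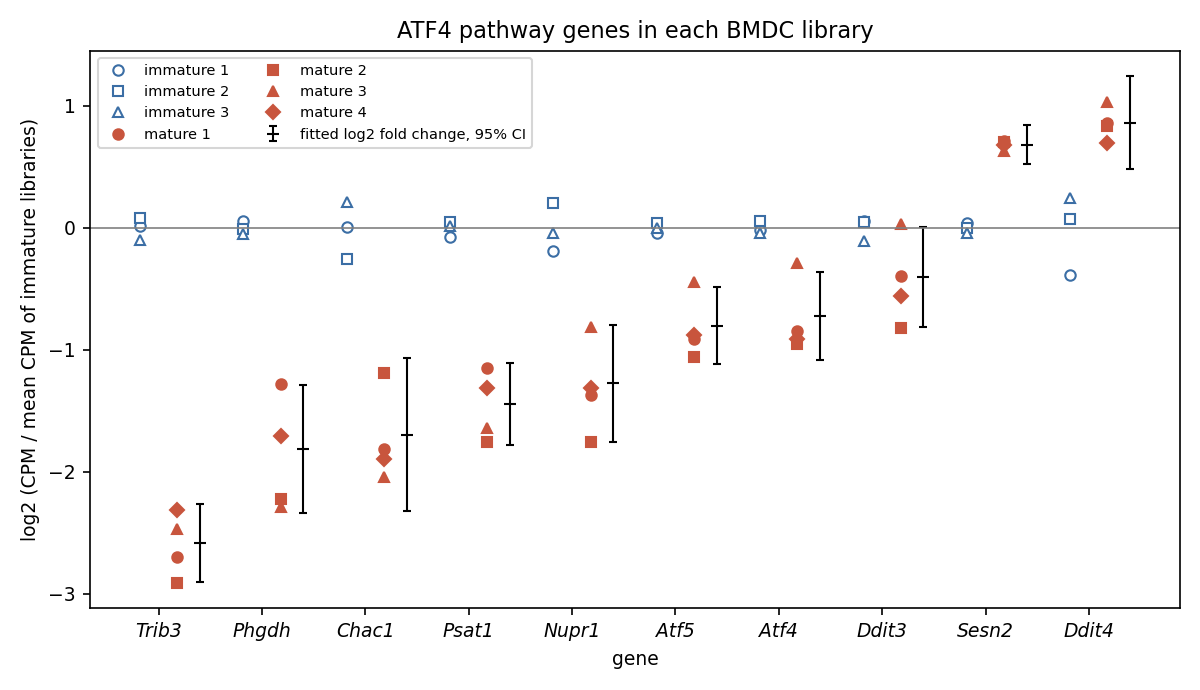
Each point is 1 library, placed on the vertical axis by the log2 ratio of its CPM to the mean CPM of the immature libraries. Open blue symbols are immature and filled red symbols mature libraries, with one shape per replicate number, and black bars are fitted log2FC values with 95% confidence intervals. Mature libraries lie above the immature ones for Sesn2 and Ddit4, and below them for every other gene except Ddit3, where mature replicate 3 lies at 0.029.

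Total counts were 54846746 to 67973086 per library. All 6 mature dendritic cell markers (Ccr7, Cd80, Cd86, Cd40, Cd83 and Fscn1) passed the criteria as higher in mature cells, and their summed level was 405 to 418 CPM in immature and 4376 to 5167 CPM in mature libraries. In mouse tissues the study defined mature dendritic cells by the products of Cd80 and Cd86. If the sort used the same markers, the rise of these genes was set by the sort. The 6 general dendritic cell markers were mixed. Zbtb46 and Flt3 passed as higher, Ciita was higher and Itgax lower by the adjusted p alone (log2FC 0.68 and -0.41), and Cd74 and H2-Ab1 did not pass (log2FC 0.41 and 0.056). Markers of other cells moved with the groups too. All 7 macrophage markers, Csf1r, C1qa and C1qb among them, passed as lower, with sums of 1839 to 1903 CPM against 332 to 383 CPM. All 8 cardiac muscle markers passed as higher, with sums of 4.91 to 5.52 CPM in immature libraries, 26.9 CPM in mature replicate 1 and up to 829 CPM in the other mature libraries. In mature replicate 1 most of the sum came from Tnni3, at 24.0 CPM there and 3.17 to 3.83 CPM in immature libraries. Neutrophil markers, with Mpo, Ngp and Camp at or near 0, stayed at or below 3.02 CPM in sum, although S100a8 passed as lower (1.81 to 0.722 CPM on average, edgeR adjusted p = 0.0446), and lymphocyte markers at or below 1.97 CPM. Colon carcinoma markers summed to 69.9 to 77.4 CPM in immature and 59.2 to 69.7 CPM in mature libraries, most of it from Cdh1 (means of 55.2 and 51.5 CPM), and only Epcam passed, as higher (0.268 to 1.28 CPM on average). Of 5 endothelial and fibroblast markers, with sums of at most 34.9 CPM, Col1a2 and Cdh5 passed as higher. Both were at 0.243 CPM in mature replicate 1 and between 2.21 and 3.40 CPM in the other mature libraries, while Pecam1 was lower by the adjusted p alone (log2FC -0.62). The part of other cells in the differences of the members was not tested. In bulk RNA, fewer cells of a type and less RNA per cell cannot be told apart. Mature replicate 3 stood apart from the other mature libraries, with a median chi-square per gene of 17.7 to 25.6 against 4.26 to 5.27 among the others, and genes with short transcripts were higher in it (Spearman rho -0.41 across 17436 genes, which are not independent replicates). Mature replicate 1 lacked most cardiac counts. With it as the only mature library, the 5 members past the criteria had log2FC values from -2.67 (Trib3) to -1.12 (Psat1). The spread in that fit is that of the immature libraries alone.

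Trib3 changed most among the members (positions here and below are those of build GRCm38). It encodes a pseudokinase of the Tribbles family that is induced by ATF4 and, in turn, restrains ATF4 and AKT. Trib3 (ENSMUSG00000032715, chromosome 2 from 152337422 to 152344032) was at 103, 108 and 95.0 CPM in immature replicates 1 to 3 and at 15.7, 13.6, 18.3 and 20.5 CPM in mature replicates 1 to 4. Every mature library thus lay far below the lowest immature one. The fold was 5.98 lower in mature cells (log2FC -2.58, SE 0.14, edgeR adjusted p = 1.77e-06).

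Chac1 encodes a glutathione-degrading gamma-glutamylcyclotransferase and is a classical late target of ATF4, ATF3 and CHOP. It was the least abundant member, with 179, 142 and 227 counts in immature replicates 1 to 3 and 57, 88, 39 and 51 counts in mature replicates 1 to 4. These are 3.05, 2.55 and 3.52 CPM against 0.864, 1.33, 0.738 and 0.816 CPM, and the groups did not overlap. Chac1 (ENSMUSG00000027313, chromosome 2 from 119351229 to 119354381) had a log2FC of -1.69 (SE 0.27, edgeR adjusted p = 0.00106), 3.24-fold lower in mature cells. On log2(FPKM + 1) values, where the pseudocount is near the level of Chac1 itself, the difference was -0.77 (limma adjusted p = 0.000615) and missed the criterion on fold.

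Nupr1 encodes a small stress-induced chromatin-associated protein. Nupr1 (ENSMUSG00000030717, chromosome 7 from 126623249 to 126630861) was at 16.6, 21.7 and 18.3 CPM in immature replicates 1 to 3 and at 7.32, 5.59, 10.8 and 7.61 CPM in mature replicates 1 to 4. All mature libraries were below all immature ones, and mature replicate 3 came closest. Its log2FC was -1.27 (SE 0.21, edgeR adjusted p = 0.00119), and -0.97 on log2(FPKM + 1) values (limma adjusted p = 0.000739), which misses the criterion on fold.

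Both enzymes of serine synthesis on the list fell. Psph, a serine synthesis gene outside the members, had a log2FC of -0.40 and did not pass (edgeR adjusted p = 0.0607). Phgdh encodes the dehydrogenase that commits the glycolytic intermediate 3-phosphoglycerate to serine, and Psat1 the aminotransferase that acts next and takes its amino group from glutamate. Phgdh (ENSMUSG00000053398, chromosome 3 from 98313170 to 98339990) was at 58.2, 55.6 and 54.3 CPM in immature replicates 1 to 3 and at 23.1, 12.0, 11.5 and 17.2 CPM in mature replicates 1 to 4. The mature libraries were spread more widely than the immature ones, with replicate 1 highest, but none reached the immature range. Its log2FC was -1.81 (SE 0.23, edgeR adjusted p = 0.000244), 3.51-fold lower in mature cells. Psat1 (ENSMUSG00000024640, chromosome 19 from 15904678 to 15947337) was at 63.8, 69.6 and 68 CPM in immature replicates 1 to 3 and at 30.4, 19.9, 21.6 and 27.1 CPM in mature replicates 1 to 4. Here too mature replicate 1 was the highest mature library and the groups did not overlap. The log2FC was -1.44 (SE 0.15, edgeR adjusted p = 6.71e-05), 2.71-fold lower. With mature replicate 1 as the only mature library, the log2FC values were -1.26 for Phgdh and -1.12 for Psat1. That fit holds no spread between mature libraries.

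The transcription factors of the list differed less. Atf4 (ENSMUSG00000042406, chromosome 15 from 80255184 to 80257541) was at 346, 363 and 340 CPM in immature replicates 1 to 3 and at 194, 181, 287 and 186 CPM in mature replicates 1 to 4. The groups did not overlap, although mature replicate 3 lay well above the other mature libraries. The log2FC of -0.72 (SE 0.16, edgeR adjusted p = 0.00576) passed the adjusted p but not the criterion on fold, and it was -0.88 without mature replicate 3 (edgeR adjusted p = 4.93e-07).

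Atf5 encodes the closest relative of ATF4, a bZIP factor with a like translational control that is tied to the mitochondrial stress response. Atf5 (ENSMUSG00000038539, chromosome 7 from 44812256 to 44816658) was at 127, 134 and 131 CPM in immature replicates 1 to 3 and at 69.4, 62.9, 96.3 and 71.1 CPM in mature replicates 1 to 4. It followed the order of Atf4 in having replicate 3 as the highest and replicate 2 as the lowest mature library. Its log2FC was -0.80 (SE 0.14, edgeR adjusted p = 0.00155). On the opposite strand, Il4i1 and Nup62 overlap the first 272 and 571 bases of the gene, and Il4i1 rose from a mean of 117 to 752 CPM. The libraries were prepared with a strand-marking protocol, but whether counting used strand is not given in the sources used here.

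Ddit3 encodes CHOP, the bZIP factor that carries the apoptotic branch of the response. Ddit3 (ENSMUSG00000025408, chromosome 10 from 127290774 to 127296288) was at 35.7, 35.4 and 31.9 CPM in immature replicates 1 to 3 and at 26.1, 19.5, 35.0 and 23.4 CPM in mature replicates 1 to 4. Mature replicate 3 fell inside the immature range and the other mature libraries below it. The log2FC of -0.40 (SE 0.18, edgeR adjusted p = 0.102) has a 95% confidence interval from -0.82 to 0.011, so a moderate fall or no difference were both compatible with these libraries. Without mature replicate 3 it was -0.55 (edgeR adjusted p = 0.00202). The last 68 bases of the gene overlap Mars1 on the opposite strand, which was itself lower in mature cells (log2FC -0.73).

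Sesn2 and Ddit4, which both encode inhibitors of the growth kinase complex mTORC1, went the other way. Sestrin 2, the product of Sesn2, is a leucine sensor, and the Ddit4 product, REDD1, is also induced by hypoxia and glucocorticoids. Sesn2 (ENSMUSG00000028893, chromosome 4 from 132492032 to 132510501) was at 105, 102 and 98.7 CPM in immature replicates 1 to 3 and at 167, 166, 158 and 163 CPM in mature replicates 1 to 4. The mature libraries were closer together, for their level, than for any other member, and the groups were far from overlapping. Its log2FC was 0.68 (SE 0.069, edgeR adjusted p = 6.29e-05), 1.61-fold higher in mature cells. Ddit4 (ENSMUSG00000020108, chromosome 10 from 59949669 to 59951834) was at 6.22, 8.57 and 9.64 CPM in immature replicates 1 to 3 and at 14.8, 14.6, 16.7 and 13.2 CPM in mature replicates 1 to 4. Immature replicate 1 was the lowest library, and every mature library exceeded every immature one. The log2FC was 0.86 (SE 0.17, edgeR adjusted p = 0.00297), 1.82-fold higher, and neither gene reached the criterion on fold.

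FPKM, which scales counts by gene length and library total, allows levels of different genes to be compared. In immature cells Atf4 was highest, at 130 ± 7.22 FPKM (SD, n = 3), followed by Atf5, Trib3, Sesn2, Phgdh, Ddit3, Psat1, Nupr1, Ddit4 and Chac1, the last at 1.62 ± 0.221 FPKM (SD, n = 3), and the libraries of no neighbouring pair overlapped. In mature cells Atf4 stayed first, at 84.5 ± 15.4 FPKM (SD, n = 4), and Chac1 last, at 0.540 ± 0.179 FPKM (SD, n = 4). Sesn2 moved up to 44.5 ± 3.14 FPKM (SD, n = 4), beside Atf5 at 35.4 ± 5.06 FPKM (SD, n = 4), with overlapping libraries. Trib3 moved from rank 3 to rank 6, at 7.55 ± 1.22 FPKM (SD, n = 4), into a run of Ddit4, Trib3, Phgdh and Psat1 in which each gene overlapped the next.

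**Figure D2:**
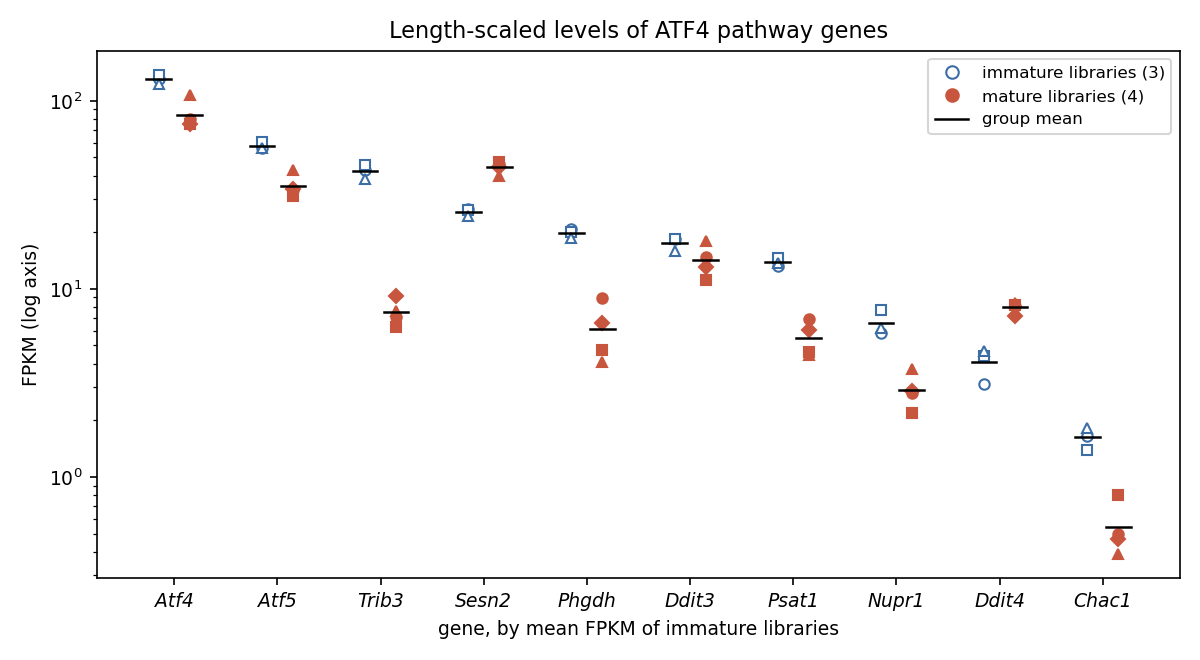
FPKM of each gene on a log axis, in the order of its mean in immature cells, with 1 point per library (open blue for immature, filled red for mature, one shape per replicate number) and black lines for group means. Trib3 drops from 42.1 to 7.55 FPKM on average and Sesn2 rises from 25.7 to 44.5 FPKM.

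Within the mature group the members did not move as one. Mature replicate 3 was highest for 5 members (Atf4, Atf5, Ddit3, Ddit4 and Nupr1) and lowest for 3 (Chac1, Sesn2 and Phgdh). Its log2 ratio to the mean of replicates 1, 2 and 4 was 0.62 for Atf4, 0.61 for Ddit3 and 0.65 for Nupr1, against -0.60 for Phgdh and -0.44 for Chac1. Genes with short transcripts were higher in that library across 17436 genes, whose longest transcripts had a median of 2922 bases. The 5 members highest there had 969 (Ddit3) to 2449 bases (Nupr1). Of the 3 lowest there, Chac1 had 1637, Phgdh 1893 and Sesn2 3475 bases. The part of transcript length in this pattern was not tested. Mature replicate 1 was highest for Sesn2, Psat1 and Phgdh, with a log2 ratio of 0.77 for Phgdh. By Pearson correlation of log2 CPM over the 7 libraries, which carry the same group difference, the genes most like Atf4 were AI662270, Atp6v1d and Ninj1 (r = 0.997 to 0.998). Those most like Ddit3 were Rab33a, Mrpl38 and Gm13237 (r = 0.984 to 0.988). Those most like Psat1 were Cebpg, Hrh1 and Pbk (r = 0.995 to 0.998), and Cebpg encodes the C/EBP partner with which ATF4 binds many amino acid response genes.

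The rest of the pathway was read from 8 lists chosen with earlier results of these data known. Of 123 tested genes on them, 22 were lower (17.9%) and 8 higher (6.50%) in mature cells by the criteria, against 9.95% and 13.2% of all tested genes, and their median log2FC was -0.39 against 0.055. No set test was run. Upstream, 1 of 9 kinase and regulator genes passed. That was the adaptor gene Nck2, whose log2FC was 1.26 (SE 0.096, edgeR adjusted p = 1.2e-05). None of the 4 eIF2alpha kinases, named here as a complete group after their values were seen, reached the criterion on fold. Eif2ak1, the heme-sensing kinase, fell with a log2FC of -0.52 (edgeR adjusted p = 0.00184). The log2FC values were -0.39 for Eif2ak2 (edgeR adjusted p = 0.187), 0.17 for Eif2ak3 (edgeR adjusted p = 0.313) and 0.099 for Eif2ak4 (edgeR adjusted p = 0.627), which encode the kinases PKR, PERK and GCN2.

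Among 14 genes of eIF2, its exchange factor eIF2B and the eIF2alpha phosphatase, 6 were lower and 1 higher by the adjusted p alone. By the criteria 1 was higher and 1 lower, and they are the alternative regulatory subunits of the phosphatase. Means are given ± SD over 3 immature and 4 mature libraries. Ppp1r15a, the stress-inducible subunit GADD34, rose from a mean of 84.8 ± 19.4 CPM in immature to 206 ± 45.9 CPM in mature cells (log2FC 1.28, SE 0.20, edgeR adjusted p = 0.000890). Ppp1r15b, the constitutive subunit, fell from a mean of 203 ± 12.2 CPM in immature to 84.0 ± 11.2 CPM in mature cells (log2FC -1.27, SE 0.12, edgeR adjusted p = 3.25e-05). The groups did not overlap for either gene. Per length, Ppp1r15b was the higher of the pair in immature cells (31.9 against 25.4 FPKM on average) and Ppp1r15a in mature cells (66.0 against 14.3 FPKM).

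Of 18 bZIP genes that can partner or compete with ATF4, 7 were lower and 1 higher. The 2 lowest were Cebpe, a factor of late granulocyte development, at a log2FC of -3.06 (SE 0.34, edgeR adjusted p = 0.000112), and the immediate early gene Fos at -3.02 (SE 0.35, edgeR adjusted p = 0.000156). Batf3, which is required for cross-presenting dendritic cells, rose by a log2FC of 1.36 (SE 0.23, edgeR adjusted p = 0.00152). Several of these factors are also expressed in macrophages, whose markers were lower in mature cells. The part of macrophages in the differences of these bZIP genes was not tested.

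Of 22 other amino acid response genes, 5 were lower (Slc7a5, Slc6a9, Asns, Aldh1l2 and Slc7a1) and 1 higher. By the adjusted p alone 10 were lower and 2 higher. One of the higher genes was Slc7a11, with a log2FC of 0.88 (SE 0.12, edgeR adjusted p = 0.000395). Slc7a5, the light chain of the large neutral amino acid transporter, fell from a mean of 162 ± 2.99 CPM in immature to 37.1 ± 4.47 CPM in mature cells (log2FC -2.12, SE 0.10, edgeR adjusted p = 9.56e-07). Slc6a9, a glycine transporter, fell with a log2FC of -1.64 (SE 0.19, edgeR adjusted p = 0.000124). Asns, which makes asparagine with glutamine as the nitrogen donor and was singled out after its value was seen, fell from a mean of 74.5 ± 1.03 CPM in immature to 24.9 ± 2.87 CPM in mature cells. Slc1a4, a transporter of serine, alanine and cysteine, rose from a mean of 13.5 ± 1.04 CPM in immature to 52.7 ± 5.13 CPM in mature cells (log2FC 1.97, SE 0.11, edgeR adjusted p = 2.26e-06). Among 15 serine and one-carbon genes, Slc1a4 and Amt, of the glycine cleavage system, were higher and none was lower by the criteria, with a log2FC of 1.23 for Amt (SE 0.29, edgeR adjusted p = 0.00820). By the adjusted p alone 5 were lower and 4 higher, while Mthfd2, a mitochondrial folate enzyme, had a log2FC of 0.041 with a 95% confidence interval from -0.15 to 0.23.

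Of 21 other stress targets, 5 were lower (Gdf15, Nrg4, Osgin1, Ero1l and Hmox1) and 1 higher. Gdf15, a secreted stress cytokine, fell from a mean of 20.9 ± 4.54 CPM in immature to 4.76 ± 2.00 CPM in mature cells (log2FC -2.14, SE 0.32, edgeR adjusted p = 0.000619). Nrg4, a growth factor of the neuregulin family, fell with a log2FC of -2.08 (SE 0.34, edgeR adjusted p = 0.00119). Nupr1l, the relative of Nupr1, rose from 0.219 to 0.706 CPM on average (log2FC 1.67, SE 0.55, edgeR adjusted p = 0.0348). Its counts were low, at 16, 5 and 19 in immature and 27, 64, 41 and 42 in mature libraries.

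Among 10 close relatives of the members, 3 were higher (Sesn3, Nupr1l and Ddit4l) and 1 lower (Trib1) by the criteria. Nupr1l, on its low counts, thus went against Nupr1. Trib1 fell with a log2FC of -1.73 (SE 0.23, edgeR adjusted p = 0.000295), as Trib3 did, and Sesn3 rose from a mean of 9.51 ± 1.12 CPM in immature to 59.1 ± 11.5 CPM in mature cells (log2FC 2.64, SE 0.18, edgeR adjusted p = 6.53e-06).

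In the other arms of the unfolded protein response, led by IRE1 and ATF6, 3 of 20 genes were lower and none higher. By the adjusted p alone 14 were lower and 1 higher. Pdia4, a protein disulfide isomerase of the ER, fell from a mean of 233 ± 6.86 CPM in immature to 92.0 ± 3.37 CPM in mature cells (log2FC -1.34, SE 0.070, edgeR adjusted p = 1.39e-06). Sdf2l1, an ER cochaperone, fell with a log2FC of -1.08 (SE 0.16, edgeR adjusted p = 0.000582), and the third gene was Atf6 itself. Xbp1, the mRNA spliced by IRE1, had a log2FC of 0.21 (SE 0.091, edgeR adjusted p = 0.0907).

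**Figure D3:**
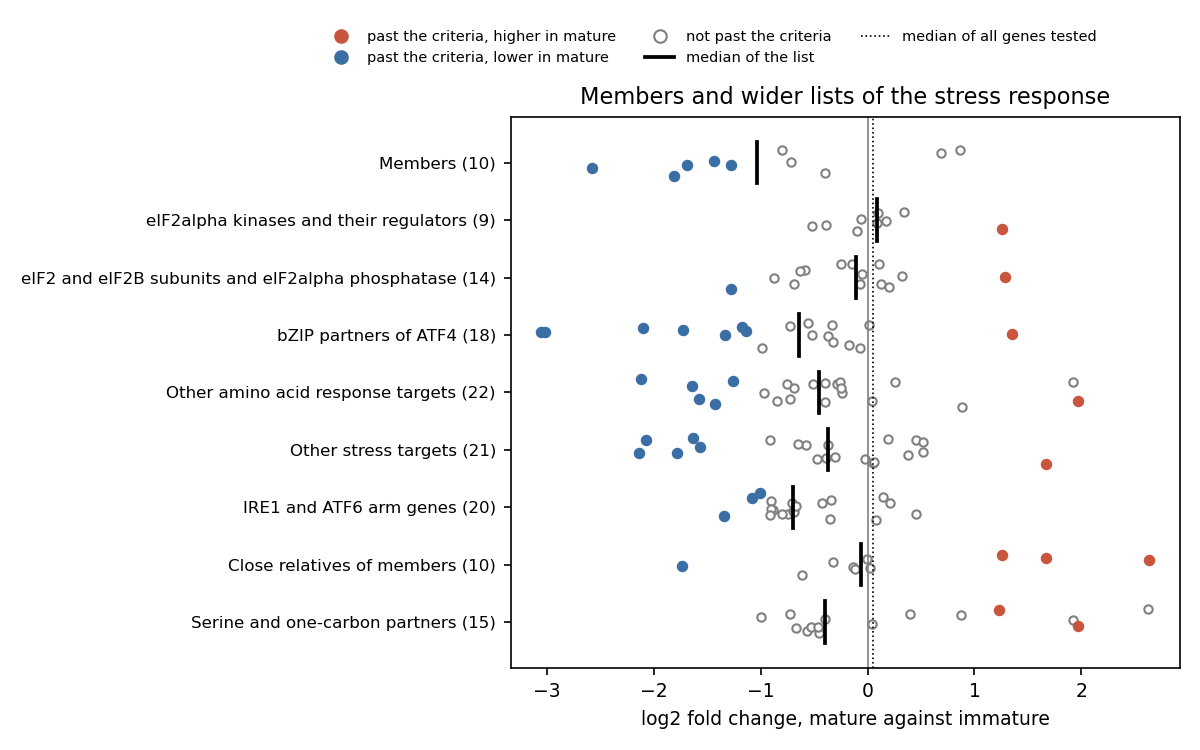
Log2FC values of the 10 members and of the 8 wider lists (tested genes in parentheses), with 1 point per gene, red or blue where it passed the criteria as higher or lower in mature cells and open where it did not. Vertical black bars are list medians, which run from -0.70 in the IRE1 and ATF6 list to 0.091 in the kinase list beside -1.04 for the members, and the dotted line is the median of all genes tested, 0.055.

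The gene ontology terms in the deposited table link some members. Atf4, Ddit3, Trib3 and Chac1 share the term intrinsic apoptotic signaling in response to ER stress. Of the other 29 tested genes with that term, 5 were lower and 1 higher by the criteria, with a median log2FC of -0.14. Over all tested genes 9.95% were lower and 13.2% higher. Atf4, Ddit3 and Trib3 share the term response to ER stress. Of its other 69 tested genes, 9 were lower and 4 higher by the criteria, with a median log2FC of -0.27. Psat1 and Phgdh share serine biosynthesis with 2 other tested genes, neither of which passed.

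The sign of every member held in all 17 alternative choices of test, scaling, filter and libraries. The log2FC ran from -1.90 to -0.77 for Chac1, which moved most, from -2.69 to -2.34 for Trib3, from -0.88 to -0.61 for Atf4 and from 0.66 to 0.79 for Sesn2.

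**Figure D4:**
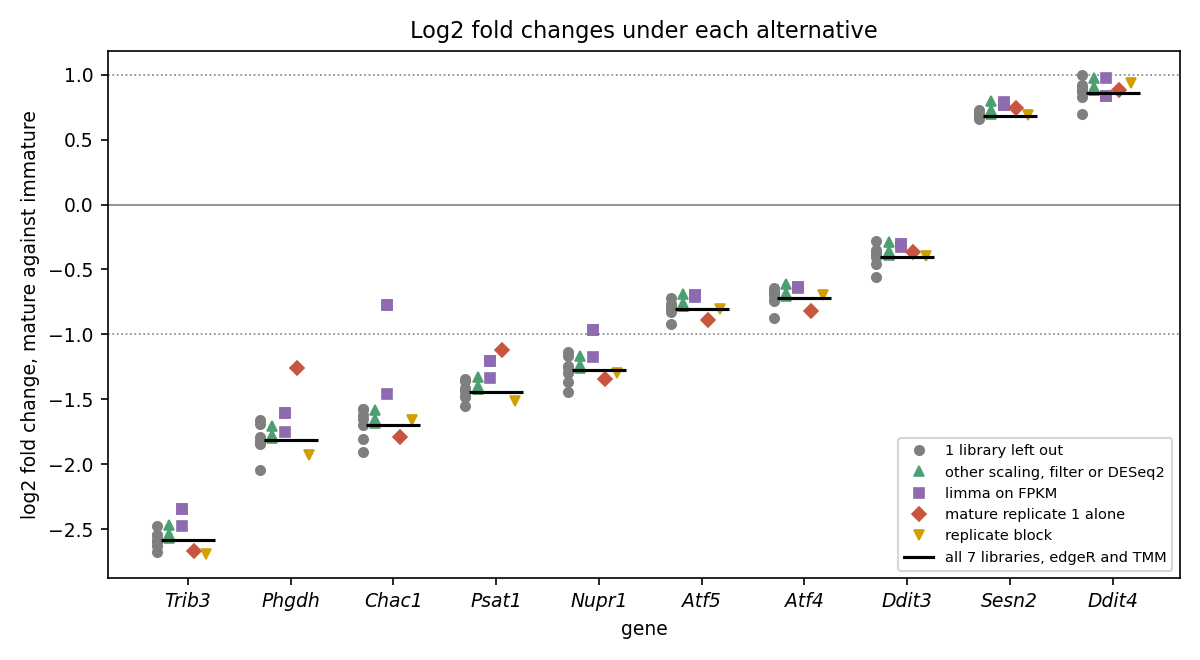
Log2FC values, mature against immature, of each gene with edgeR and TMM on all 7 libraries (black bars) and under each alternative (symbols by kind). Dotted lines mark the criterion of 1 in either direction. Chac1 on log2(FPKM + 1) lies at -0.77, and no point crosses 0.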

How the data were processed

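The authors deposited raw counts, whole numbers for each gene in each library that were not normalized. The FPKM values deposited beside them were scaled by the authors for gene length and library total and rounded to 2 decimals. The submitters' processing notes name cutadapt 1.9, HISAT2 2.2.1, StringTie 2.1.6, DESeq2, edgeR and the build mm9, with no role. The coordinates in the table are those of GRCm38, identical to GENCODE M21 for 25842 of 28588 shared gene IDs. The counting program is not given in the sources used here. Libraries followed the labels.

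The count fit used edgeR 4.0.16 under R 4.3.3 (its filter on low counts, TMM, quasi-likelihood test, no covariates, all 7 libraries). The standard error is the size of the log2 fold change divided by the square root of F, and intervals are 95%. Alternatives used DESeq2 1.42.0, limma 3.58.1 on log2(FPKM + 1) and log2(FPKM + 0.1), other scalings and filters, and left-out libraries. log2 CPM for correlations had a prior count of 2. The tests were tested on simulated counts. Promoters came from RefSeq and matched all 10 symbols. Python 3.11.15 with pandas 2.3.3, numpy 2.4.6, scipy 1.17.1 and matplotlib 3.10.9 made tables and figures.

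No 2 libraries of a group agreed within sampling noise (median chi-square per gene at least 3.83, 0.455 by chance), so none was merged. Counting error is small at these depths except for genes of low count, such as Chac1 and Nupr1l. It covers no other variation, since copies of a molecule are counted separately.

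The members and all lists were chosen with earlier results of these data known. Besides the members, the genes named are, from each wider list, up to 2 in each direction with the largest log2 fold change past the criteria, and the 3 genes best correlated with each of Atf4, Ddit3 and Psat1. Genes outside this rule, including the rest of small counts and overlapping genes, were chosen after their values were seen.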

Additional observations from a re-analysis of the deposited data

Results flagged for a closer look

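Among the 4 mature libraries, 1 member had a library far from the other 3. For the CPM of Atf4, mature replicate 3 was highest, and its gap to the next library divided by the range was 0.871, above the 95% critical value for 4 libraries. Chance flags about 1 in 20 such groups, and 10 were examined.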

How the results depend on the processing

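The 5 members past the criteria became 3 (Trib3, Phgdh and Psat1) with limma on log2(FPKM + 1), with or without its filter, since the pseudocount compresses the low values of Chac1 and Nupr1, and 9 without the fold criterion. With a pseudocount of 0.1 the count was 5. The 30 genes of the wider lists became 19 with limma on log2(FPKM + 1), with or without its filter, and 73 without the fold criterion. Over all genes the count of 4037 became 1768 with limma on log2(FPKM + 1), 1716 without its filter, 2561 with log2(FPKM + 0.1) and 8053 without the fold criterion. With 1 library left out it ran from 3646 to 4052, that of the wider lists from 28 to 34, and that of the members stayed at 5.

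Ddit3 passed an adjusted p of 0.05 without mature replicate 3. With mature replicate 1 as the only mature library its log2 fold change was -0.37, in a fit without spread between mature libraries. With 1 library left out its log2 fold change ran from -0.55 to -0.28, and over the 17 alternatives its adjusted p ran from 0.00202 to 0.223. The other 9 members kept their side of the adjusted p in all 17. Upper quartile scaling moved the median of all genes by 0.11 on the log2 scale, and no member changed sign or side.

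Whether same-numbered libraries share more than a number is not given. The correlations of their deviations from the group means were 0.029, -0.0011 and 0.014. Those of the other pairs ran from -0.048 to 0.036. With so few libraries per group these values cannot decide whether libraries were paired. A fit with a replicate block passed 3616 genes, 5 members and 30 genes of the wider lists, and Ddit3 had a log2 fold change of -0.39 (edgeR adjusted p = 0.178) there.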
